A study of Rattus norvegicus with 36 samples.

Results

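Myostatin and the activins are secreted proteins of the TGF-beta family, and the genes described here are 10 genes of their pathway. The ligand genes are Mstn, Inhba and Inhbb, and the receptor genes are Acvr2a and Acvr2b. Fst and Fstl3 encode ligand-binding inhibitors, Smad2 and Smad3 signal transducers, and Smad7 an inhibitor inside the cell. All 10 were measured in rat soleus muscle after spinal cord injury (SCI). A gene was found by its symbol among the probe sets that carry exactly 1 gene symbol, and where there were several, the brightest by its mean log2 value across the 36 arrays was used. The 10 genes had 16 such probe sets, out of 31042 tested probe sets and 14217 genes with a symbol of their own. Inhba, Fst, Fstl3 and Smad3 had 2 probe sets each, Smad7 had 3, and the other probe sets were read as a check.

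Adult female Sprague Dawley rats, 16 weeks old at the start, had the spinal cord contused at T8 with moderate severity. The 6 groups held 6 rats each and each rat gave 1 array of its left soleus, a postural hindlimb muscle of mostly slow fibres. CTR rats were uninjured and matched for age, and SCI3d, SCI8d and SCI14d rats were injured and untrained, with muscle taken 3, 8 or 14 days after SCI. SCI8d + TM rats had 3 sessions on the treadmill and SCI14d + TM rats had 5 days with 2 sessions per day, each session of 20 min, beginning on day 7, and their muscle was taken 8 h after the last session. No uninjured trained group is among the 36 arrays, so training can be compared only between injured rats. No sham operation of the controls is described. The surgery, the drugs given with it and the care after it therefore cannot be told apart from the cord injury. The arrays read whole muscle, in which fewer cells of a type and less RNA per cell cannot be told apart.

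In muscle, myostatin is known as a brake on growth, and activin A and activin B, which are dimers of the Inhba and Inhbb products, bind the same type II receptors and also limit fibre size. The receptors Acvr2a and Acvr2b recruit a type I receptor that phosphorylates Smad2 and Smad3, which then enter the nucleus with Smad4. Follistatin (Fst) and follistatin-like 3 (Fstl3) bind the ligands outside the cell, and Smad7 blocks the receptors from within.

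Of the 10 genes, 3 passed the test against controls. Inhba fell on day 3, and Inhbb and Acvr2b fell in SCI8d + TM. The other Inhba probe set did not show the fall (-0.15 on the log2 scale). The calls of Inhbb and Acvr2b lay close to the threshold and were lost in most fits without 1 array and with scaling to Gapdh. None of the 10 genes was called between trained and untrained rats of the same day. Fst and Smad3 were lower in the trained groups on both days at an unadjusted p under 0.05 in limma, without passing the test after adjustment. Lower trained means were found for 6 of the 10 genes on day 8 and for 9 of the 10 on day 14. The share of all probe sets with a lower mean was not counted.

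Called means an adjusted p under 0.05 in limma, a linear model of the 6 groups on log2 signals, with the adjustment of Benjamini and Hochberg over all probe sets. In SCI3d against CTR, 1 of the 10 genes was called, against 16.5% of all probe sets. No gene was called in SCI8d or SCI14d against CTR, where 6.29% and 3.19% of all probe sets were. In SCI8d + TM against CTR 2 genes were called, against 12.2% of all probe sets, and in SCI14d + TM against CTR none was, against 0.358%. Both training comparisons called 0 of the 10 genes in limma, with 0% of all probe sets in SCI8d + TM against SCI8d and 0.00322% (1 probe set) in SCI14d + TM against SCI14d. The counts of 1 and 2 genes of 10 are near those shares and show nothing particular to the pathway.

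At an unadjusted p under 0.05 the counts were 7 of 10 genes on day 3 (2 higher and 5 lower, with 27.6% of all probe sets), 4 in SCI8d (20.6%) and 2 in SCI14d (17.7%). Against CTR they were 2 in SCI8d + TM (26.5%) and 3 in SCI14d + TM (12.1%). For training they were 2 genes on day 8, with 4.33% of all probe sets, and 2 genes on day 14, with 5.96%. The genes of both training comparisons were Fst and Smad3, lower in trained rats on both days. The 10 genes were chosen with earlier results of these data known, so these counts are a description and do not test the pathway.

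The upstream sequences of the 3 called genes are shown first, with that of Ccn2, whose signal followed that of Inhba most closely over the arrays. They are RefSeq sequences of the rat build GRCr8, 250 bases before to 50 bases after 1 start per gene, written 5′ to 3′ on the strand of the gene. For Inhba and Acvr2b that start lies inside the annotated gene and not at its outer end, so other annotated starts were not read. Capitals mark CAGAC or its reverse complement GTCTG, the core of the element that Smad3 and Smad4 bind. The windows are chr17:53804459-53804758 (minus strand) for Inhba, chr13:33089324-33089623 (minus strand) for Inhbb, chr8:128016513-128016812 (plus strand) for Acvr2b and chr1:22624565-22624864 (minus strand) for Ccn2.
Inhba: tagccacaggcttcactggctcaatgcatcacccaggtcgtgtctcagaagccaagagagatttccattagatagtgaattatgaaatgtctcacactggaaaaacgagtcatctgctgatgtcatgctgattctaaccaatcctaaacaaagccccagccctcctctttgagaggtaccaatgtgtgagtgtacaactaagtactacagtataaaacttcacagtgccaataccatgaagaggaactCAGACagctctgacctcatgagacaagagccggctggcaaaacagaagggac
Inhbb: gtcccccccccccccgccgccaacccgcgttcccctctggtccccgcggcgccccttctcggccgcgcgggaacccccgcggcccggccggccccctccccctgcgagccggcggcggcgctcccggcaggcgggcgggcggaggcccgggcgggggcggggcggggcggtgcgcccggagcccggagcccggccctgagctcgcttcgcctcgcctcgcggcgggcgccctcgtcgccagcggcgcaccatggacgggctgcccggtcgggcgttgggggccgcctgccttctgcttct
Acvr2b: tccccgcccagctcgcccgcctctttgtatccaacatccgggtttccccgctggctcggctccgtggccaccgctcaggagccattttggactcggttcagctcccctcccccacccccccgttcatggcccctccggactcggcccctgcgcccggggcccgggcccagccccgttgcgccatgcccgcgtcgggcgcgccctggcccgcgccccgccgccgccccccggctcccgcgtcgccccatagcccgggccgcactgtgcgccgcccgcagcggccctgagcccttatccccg
Ccn2: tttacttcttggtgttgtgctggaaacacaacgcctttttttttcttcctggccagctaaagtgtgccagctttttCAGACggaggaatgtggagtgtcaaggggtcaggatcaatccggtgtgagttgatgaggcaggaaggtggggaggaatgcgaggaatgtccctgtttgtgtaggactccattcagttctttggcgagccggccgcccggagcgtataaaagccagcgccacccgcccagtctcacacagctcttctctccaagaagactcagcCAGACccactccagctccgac

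The Inhba window held CAGAC once, 2 bases before the start, TATAAA 40 bases before it, CCAAT in 3 places and CANNTG in 1 place, and none of these matches overlapped. The Ccn2 window held CAGAC in 2 places, 174 bases before and 30 bases after the start, and TATAAA 31 bases before it. The Inhbb and Acvr2b windows held none of the 4 motifs on either strand, and G and C made up 84.3% and 77.3% of them, against 45.7% in Inhba. Of 33465 rat windows of this length, 50.1% held CAGAC, 14.2% TATAAA, 37.5% CCAAT and 72.1% CANNTG, counting both strands, so a match to CAGAC is common. A match is a description of the letters and not a binding site. Upstream windows were matched for 8 of the 10 genes, without Mstn and Fst.

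Inhba, the gene of the subunit that forms activin A, had its highest signals in uninjured muscle with the probe set in use, 1383486_at. In CTR the lowest, median and highest signals were 464, 618 and 1063. In SCI3d they were 143, 169 and 306, so that every injured rat of day 3 lay below every control. The difference was -1.86 on the log2 scale (SE 0.33, 95% interval -2.53 to -1.19), which is 3.63-fold lower, with an adjusted p of 0.000111 in limma. In an exact permutation test of the 6 and 6 arrays, two-sided, p was 0.00216, the smallest that 924 arrangements can give. Groups that do not overlap were found for 7.73% of all probe sets in this comparison. The call held without each of the 12 arrays in turn, with adjusted p between 0.0001185 and 0.0005497.

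The signals of Inhba were between those of SCI3d and CTR in the later groups. SCI8d rats had 183, 413 and 656 (lowest, median and highest), and SCI14d rats 222, 445 and 852. In SCI8d + TM they were 162, 536 and 709, and in SCI14d + TM 244, 412 and 513. All 4 groups overlapped with CTR, and with SCI3d. Against CTR the differences were -0.91 in SCI8d (adjusted p = 0.0935 in limma), -0.66 in SCI14d (adjusted p = 0.289), -0.63 in SCI8d + TM (adjusted p = 0.219) and -0.90 in SCI14d + TM (adjusted p = 0.245). Against SCI3d Inhba was higher by 1.23 in SCI8d + TM (adjusted p = 0.0114), by 1.20 in SCI14d (adjusted p = 0.0138) and by 0.96 in SCI14d + TM (adjusted p = 0.0411), while SCI8d at 0.95 was not called (adjusted p = 0.0783). These pairs called 12.7%, 12.9%, 16.3% and 6.79% of all probe sets. The call in SCI14d + TM was lost without 8 of the 12 arrays, each left out alone (all but SCI14d + TM replicates 1 and 6 and SCI3d replicates 2 and 5), with adjusted p up to 0.0938. Between trained and untrained rats Inhba differed by 0.28 on day 8 (95% interval -0.39 to 0.95) and by -0.24 on day 14 (95% interval -0.90 to 0.43), neither called.

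**Figure D1:**
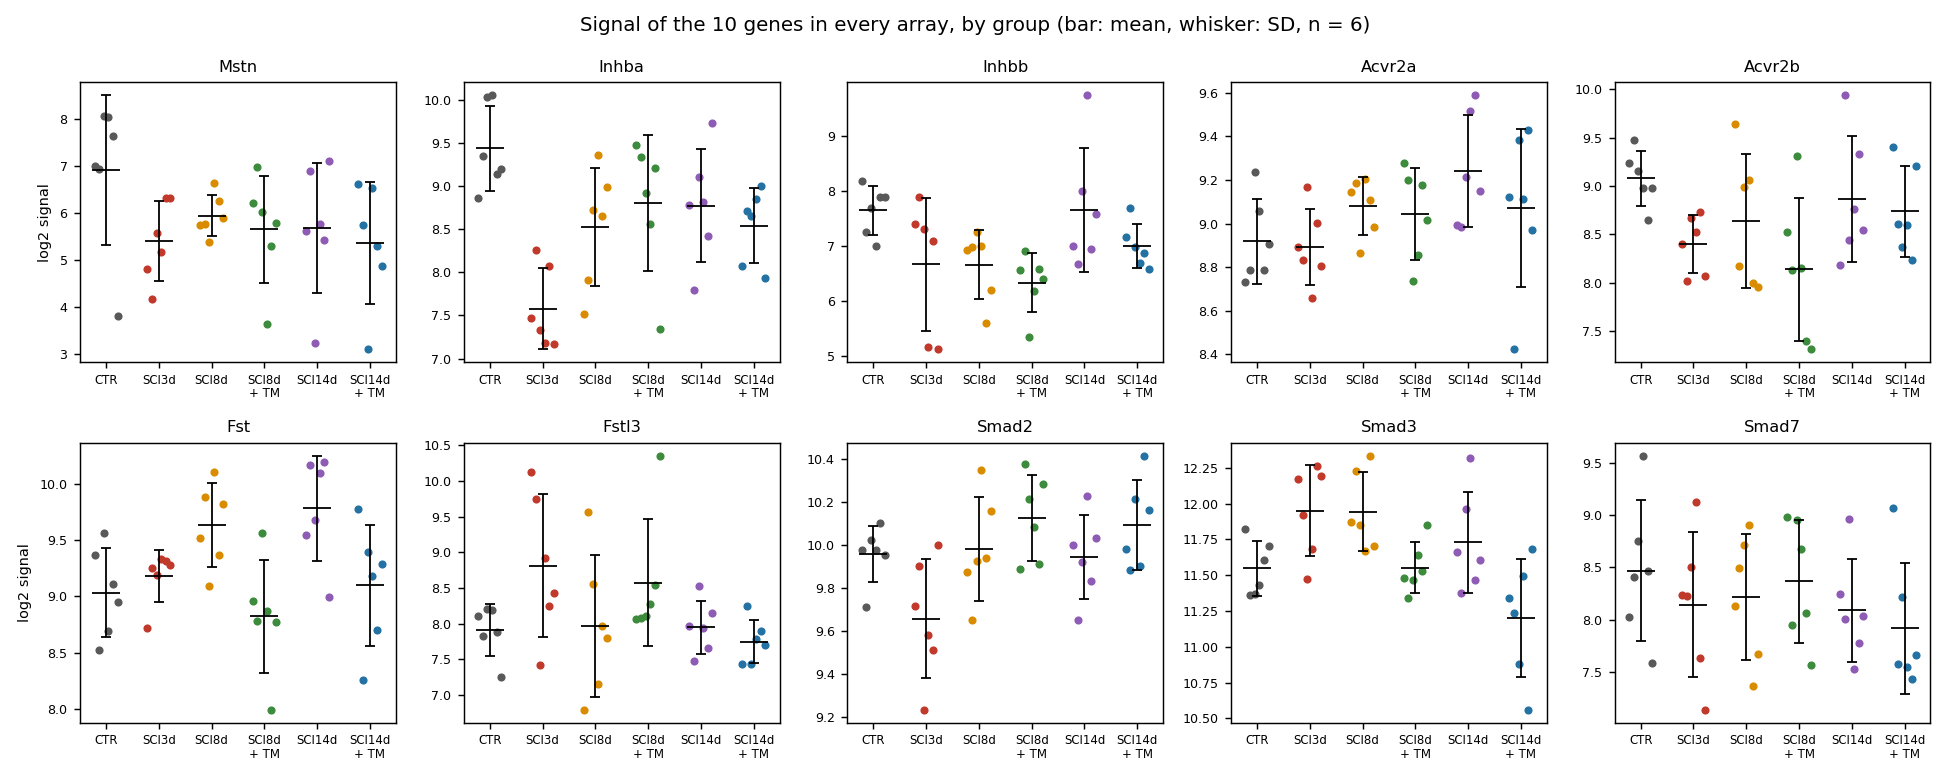
Log2 signal of the 10 genes in each of the 36 arrays (vertical axis), by group, 1 point per rat, with the bar at the group mean and the whisker at 1 SD (n = 6). The 6 SCI3d points of Inhba lie below all 6 CTR points, while most other groups overlap; each panel has its own axis and levels are not comparable between genes.

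The second probe set of Inhba did not show this difference. With 1369012_at the lowest, median and highest signals were 111, 155 and 241 in CTR and 119, 138 and 188 in SCI3d, so that the day 3 rats lay within the range of the controls. The difference was -0.15 (SE 0.29, 95% interval -0.74 to 0.44, adjusted p = 0.801 in limma), an interval that does not reach that of the probe set in use, 1383486_at. The difference between the probe sets was not tested. Over the 36 arrays, which share the rats, Pearson's r of the log2 signals was 0.45 and Spearman's rho 0.40, and r was 0.57 after the group means were taken out. Which part of the Inhba transcript each probe set reads was not analysed here. Against SCI3d the second probe set gave 0.49 in SCI8d + TM (adjusted p = 0.303 in limma), -0.15 in SCI14d (adjusted p = 0.796) and -0.0075 in SCI14d + TM (adjusted p = 0.991), so that none of the 3 called pairs was called with it, and in both day 14 groups the sign changed. The fall of Inhba on day 3, and its higher signals in the later groups than on day 3, thus rest on 1 of its 2 probe sets.

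**Figure D2:**
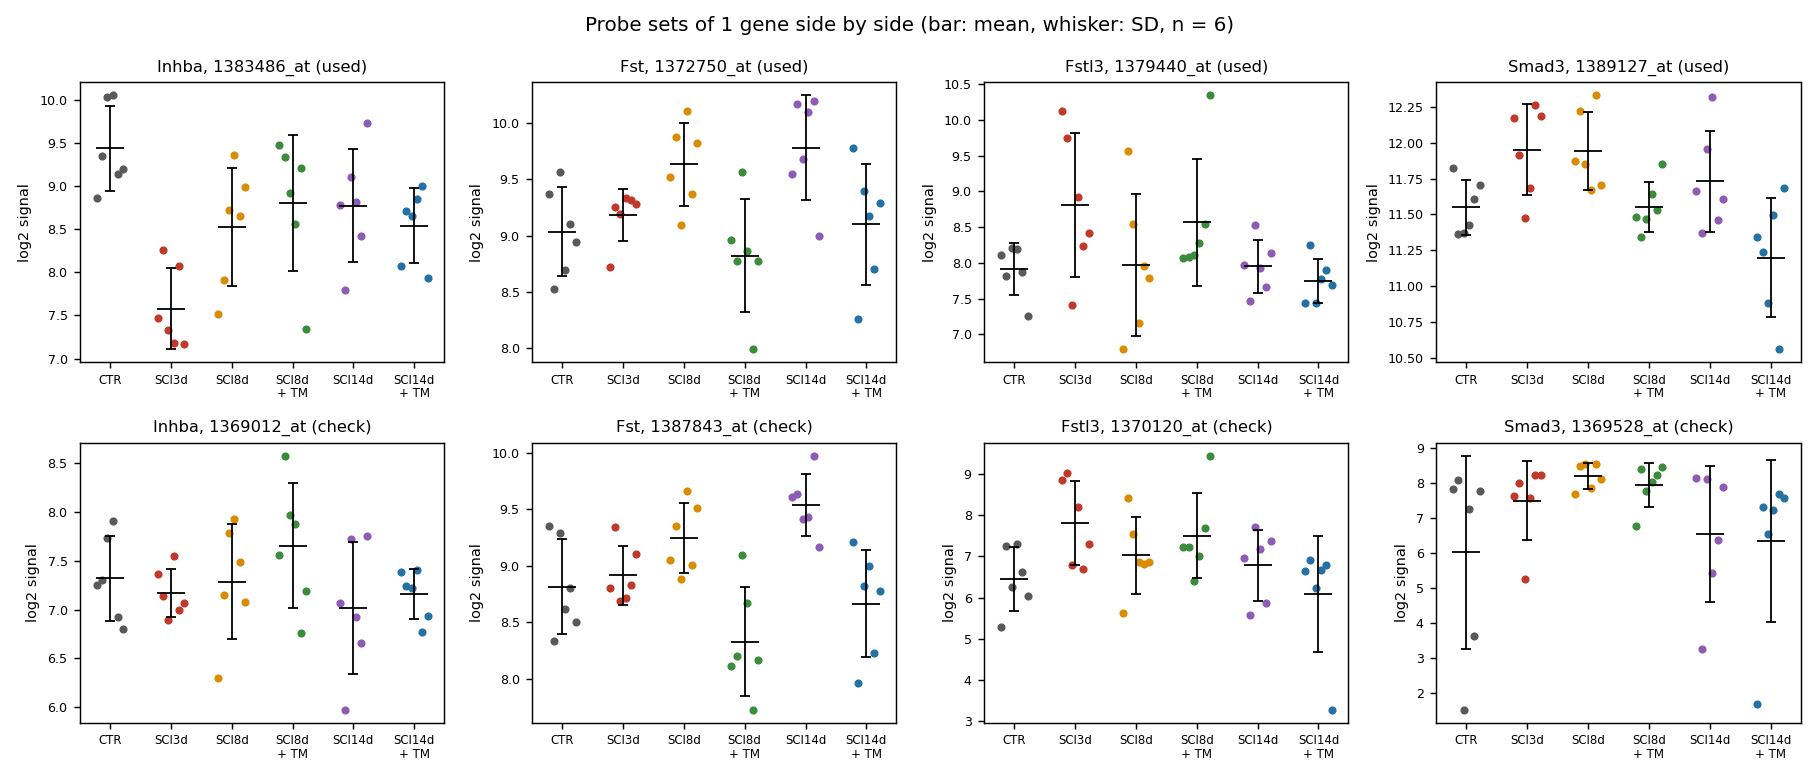
Log2 signal (vertical axis) of the probe set in use (upper row) and of another probe set of the same gene (lower row) for Inhba, Fst, Fstl3 and Smad3, 1 point per rat, bar at the mean, whisker at 1 SD (n = 6). For Inhba the low SCI3d points of 1383486_at are not seen with 1369012_at, while the lower trained groups of Fst are seen with both.

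Among 10374 genes with a symbol of their own whose average log2 value was not in the lowest 40% of probe sets, the 3 whose signal was most like that of Inhba over the 36 arrays were Ccn2 (Pearson's r 0.81, Spearman's rho 0.79), Nptx1 (r 0.73, rho 0.70) and Fbxl22 (r 0.72, rho 0.69). With the group means taken out r was 0.67, 0.47 and 0.62, and the arrays share library and scaling. The Ccn2 signal, lowest, median and highest, was 12779, 21852 and 29675 in CTR and 6113, 8733 and 11113 in SCI3d. The Nptx1 signal was 151, 463 and 919 in CTR and 52.5, 97.9 and 102 in SCI3d, and the Fbxl22 signal was 147, 190 and 287 in CTR and 7.01, 29.6 and 57.0 in SCI3d. For these 3 genes the day 3 and control arrays did not overlap. The differences were -1.27 for Ccn2 (adjusted p = 0.000884 in limma), -2.39 for Nptx1 (adjusted p = 4.16e-05) and -3.20 for Fbxl22 (adjusted p = 0.00377). The rule that chose them used the same arrays, so these differences are a description.

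**Figure D3:**
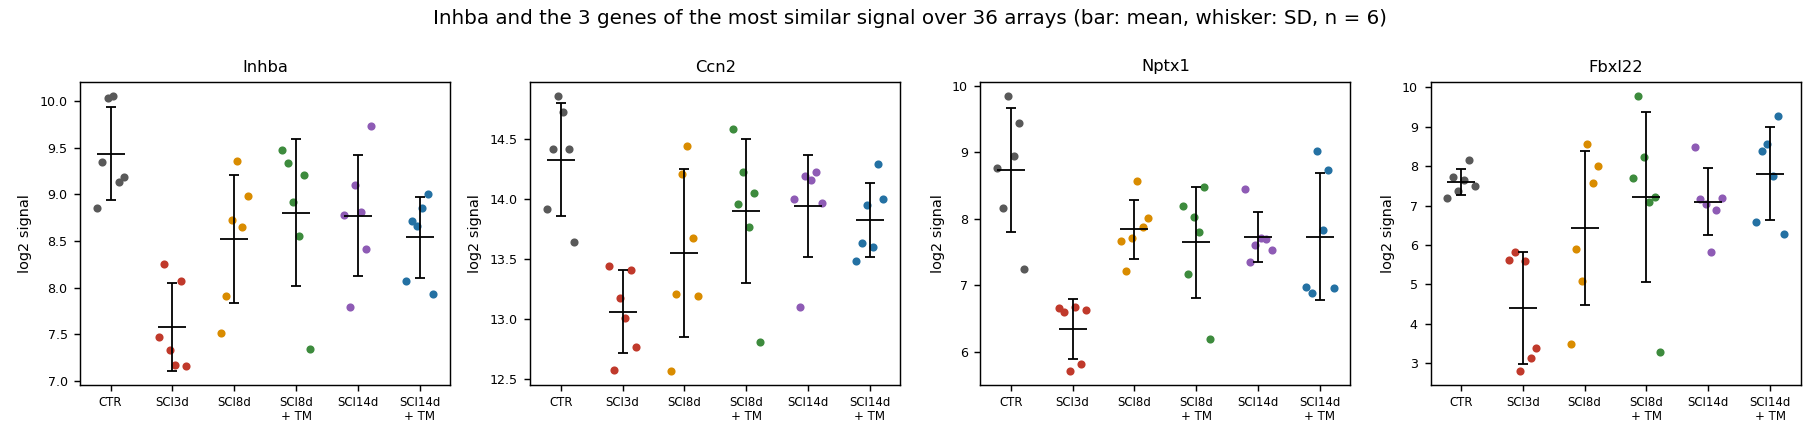
Log2 signal (vertical axis) of Inhba and of the 3 genes with the highest correlation with it, by group, 1 point per rat, bar at the mean, whisker at 1 SD (n = 6). All 4 genes have their lowest group mean in SCI3d.

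Markers of other tissue parts moved on day 3 as well. Of the 6 measured tendon markers 5 fell, with summed signals of 15319 to 93233 in CTR and 14723 to 33508 in SCI3d. Of the 6 measured adipocyte markers 4 fell (summed signals 15313 to 44275 and 7342 to 18934), and 3 of 5 erythrocyte markers rose (35754 to 48169 and 40647 to 76600). Of the other lists, 1 of 12 macrophage markers rose and 1 fell, and 1 of 10 fibroblast, 1 of 7 endothelial and 1 of 4 Schwann cell markers fell. None of the 10 muscle fibre markers, such as Acta1, Ckm, Tnni1 and Myh7, was called in any comparison with CTR or between trained and untrained rats, and no marker of these lists was at 0. The part of these markers in the Inhba values was not tested.

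Inhbb, the gene of the activin B subunit, was lower in SCI8d + TM than in controls. The lowest, median and highest signals were 127, 221 and 289 in CTR and 40.8, 89.6 and 119 in SCI8d + TM, and the groups did not overlap, as for 7.17% of all probe sets. The difference was -1.32 (SE 0.44, 95% interval -2.21 to -0.43), which is 2.50-fold lower, with an adjusted p of 0.0438 in limma. In the exact permutation test, two-sided, the unadjusted p was 0.00216. Adjusted over all pairs of gene and comparison in that test, it was 0.0758. The untrained rats of day 8 had 48.1, 124 and 152, which overlaps with both. There the difference from CTR was -0.99 (adjusted p = 0.186), and that between SCI8d + TM and SCI8d was -0.33 (95% interval -1.22 to 0.56), which was not called. The fall in SCI8d + TM is thus a difference from uninjured rats, and an effect of training on Inhbb was not shown.

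In the other groups Inhbb was spread widely. In SCI3d the lowest, median and highest signals were 34.8, 147 and 237, and 2 of the 6 rats lay below every control. SCI14d had 102, 159 and 857, where replicate 4 gave the highest value. SCI14d + TM had 95.2, 121 and 207, and 4 of the 6 lay below every control. None of these groups was called against CTR, with differences of -0.98, 0.01 and -0.65. The SCI14d mean turned to lower than CTR with quantile normalization (-0.12), median centring (-0.12) and array weights (-0.15).

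Mstn, the myostatin gene, had a dim signal with a wide spread within groups. The lowest, median and highest signals were 14.1, 165 and 268 in CTR and 17.9, 42.1 and 80.2 in SCI3d. Of the 6 controls 5 lay between 123 and 268, above every SCI3d rat, and replicate 6 was at 14.1. The difference was -1.52 (SE 0.65, 95% interval -2.84 to -0.20, adjusted p = 0.113 in limma), and without CTR replicate 6 it was -2.14 (adjusted p = 0.0119). Leaving out SCI3d replicate 2 instead raised the adjusted p to 0.2455.

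The median Mstn signal stayed below that of the controls in the later groups, at 57.0 in SCI8d, 51.9 in SCI14d, 60.2 in SCI8d + TM and 46.5 in SCI14d + TM. All rats of these 4 groups lay below the control median, as did all SCI3d rats. Against CTR the differences were -0.97, -1.24, -1.26 and -1.56, and none was called (adjusted p = 0.421, 0.316, 0.211 and 0.316 in limma). Without CTR replicate 6 the difference in SCI8d + TM was -1.88 with an adjusted p of 0.0393, and without SCI8d + TM replicate 4 its adjusted p was 0.4531. Between trained and untrained rats it was -0.29 on day 8 and -0.31 on day 14, with 95% intervals of -1.61 to 1.03 and -1.63 to 1.01, so that neither a large fall nor a large increase can be told from 0 with this spread.

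Acvr2b, the receptor that binds myostatin and the activins, was the other gene that fell in SCI8d + TM as compared to controls. The lowest, median and highest signals were 401, 537 and 711 in CTR and 159, 282 and 635 in SCI8d + TM. Of the 6 trained rats 5 lay below every control and 1, replicate 3, lay within the control range. The difference was -0.94 (SE 0.31, 95% interval -1.56 to -0.32), which is 1.92-fold lower, with an adjusted p of 0.0385 in limma. In the exact permutation test, two-sided, the unadjusted p was 0.0195. Adjusted over all pairs of gene and comparison in that test, it was 0.1364. In SCI3d the signals were 259, 353 and 423, with 4 of 6 rats below every control and a difference of -0.68 (adjusted p = 0.136), which was called in the methods' t-test after adjustment (adjusted p = 0.0276).

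The remaining groups of Acvr2b overlapped with the controls. They had 248, 398 and 799 (lowest, median and highest) in SCI8d, 290, 403 and 982 in SCI14d, and 302, 388 and 678 in SCI14d + TM. The difference between SCI8d + TM and SCI8d was -0.50 (95% interval -1.12 to 0.12) and that between SCI14d + TM and SCI14d -0.13 (95% interval -0.75 to 0.49), neither called.

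Acvr2a, the sister receptor, stayed within a narrow range of 343 to 771 over all 36 arrays. Its group means spanned 0.35 on the log2 scale, from SCI3d to SCI14d. None of the 15 pairs of groups was called for it. In SCI8d + TM against CTR it differed by 0.13 (95% interval -0.17 to 0.42), where Acvr2b fell, and the difference between the 2 receptors was not tested.

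**Figure D4:**
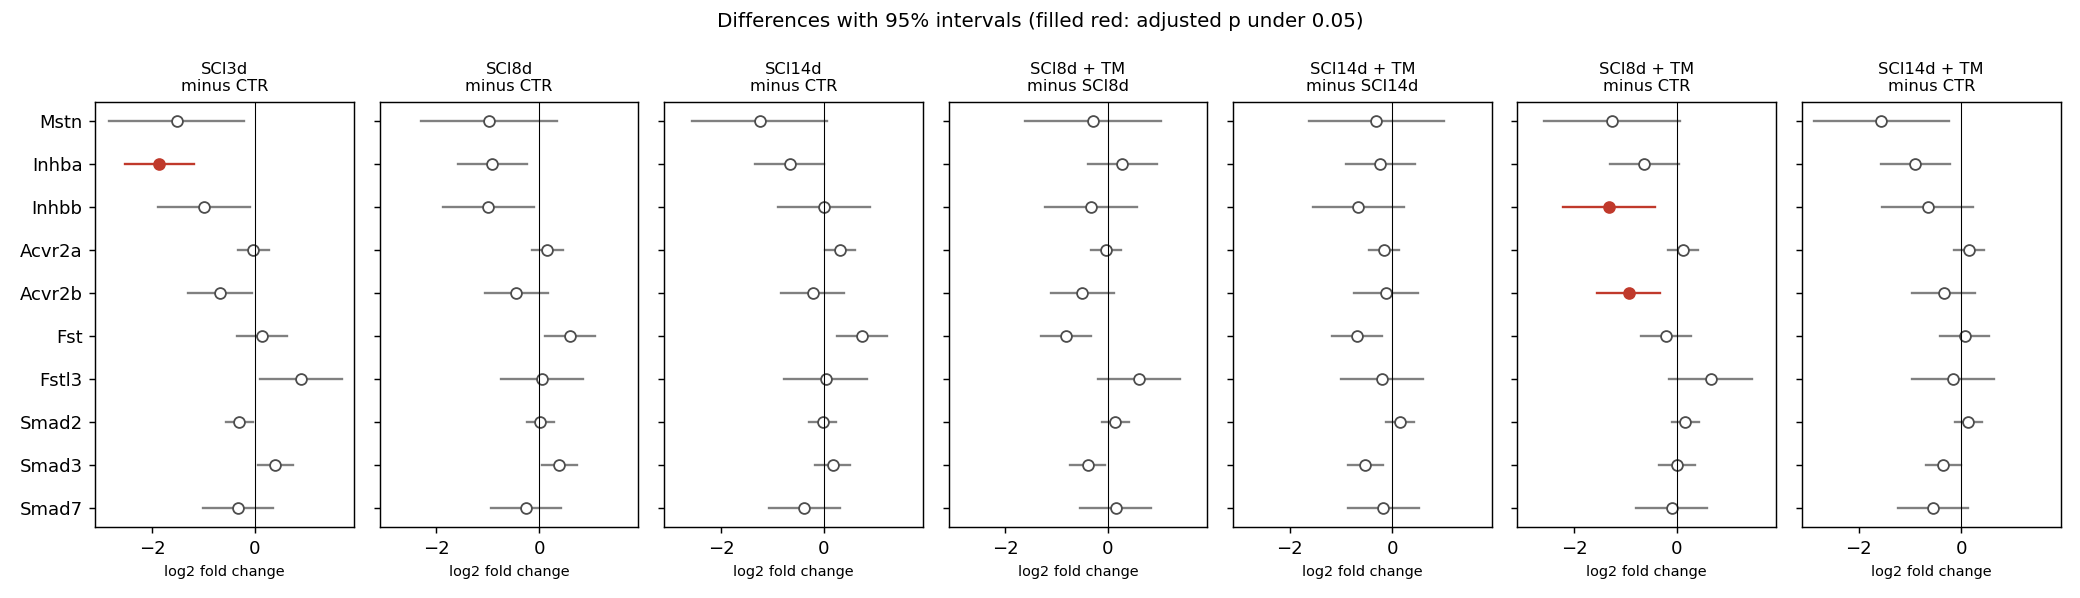
Differences in mean log2 signal (horizontal axis) of the 10 genes with 95% intervals from limma, 1 panel per comparison, first group minus second, n = 6 rats per group. Filled red points have an adjusted p under 0.05 and are Inhba in SCI3d, and Inhbb and Acvr2b in SCI8d + TM, each against CTR.

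The calls of Inhbb and Acvr2b in SCI8d + TM lay close to the threshold. Inhbb lost its call without 9 of the 12 arrays, each left out alone (all but CTR replicate 4 and SCI8d + TM replicates 1 and 2), with adjusted p up to 0.102 without SCI8d + TM replicate 3. Acvr2b lost it without 9 of 12 (all but CTR replicate 5 and SCI8d + TM replicates 1 and 3), with adjusted p up to 0.11 without SCI8d + TM replicate 5. Both were lost when each array was scaled to Gapdh (adjusted p = 0.091 and 0.0694) and with the GAPDH 3′ to 5′ ratio as a covariate (adjusted p = 0.0672 and 0.0551), a ratio that ran from 1.07 to 1.61 in CTR and from 1.08 to 1.17 in SCI8d + TM.

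Other cell type markers differed in this comparison too. Of the 5 erythrocyte markers 3 rose, with summed signals of 35754 to 48169 in CTR and 49033 to 68359 in SCI8d + TM that did not overlap. Of the 10 fibroblast markers 6 rose (summed signals 46261 to 196747 in CTR and 168048 to 220033 in SCI8d + TM), 3 of 12 macrophage markers rose (17570 to 36854 and 26140 to 52470) and 4 of 6 adipocyte markers fell (15313 to 44275 and 9361 to 14048). Of the tendon markers 1 rose and 2 fell, 1 of 3 satellite cell markers rose, and 1 of 7 endothelial and 1 of 4 Schwann cell markers fell. Their part in the values of Inhbb and Acvr2b was not tested.

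Fst, the gene of follistatin, had its highest signals in the untrained rats of days 8 and 14. The lowest, median and highest were 368, 522 and 757 in CTR, 421, 616 and 643 in SCI3d, 547, 820 and 1103 in SCI8d, and 512, 957 and 1173 in SCI14d. All 6 SCI8d rats and 5 of 6 SCI14d rats lay above the control median. The differences from CTR were 0.60 on day 8 (95% interval 0.11 to 1.09, adjusted p = 0.133 in limma) and 0.75 on day 14 (95% interval 0.26 to 1.23, adjusted p = 0.0758), neither called. On day 14 the difference passed the test without CTR replicate 3 (0.85, adjusted p = 0.0439) and without SCI14d replicate 6 (0.90, adjusted p = 0.0488). Leaving out CTR replicate 2 instead raised the adjusted p to 0.1789.

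In trained rats the Fst signals were 254, 453 and 758 on day 8 and 306, 602 and 876 on day 14. All 6 SCI8d + TM rats lay below the SCI8d median, and 5 of them below the lowest SCI8d rat. All 6 SCI14d + TM rats lay below the SCI14d median, and 2 below the lowest SCI14d rat. The differences between trained and untrained rats were -0.81 on day 8 (95% interval -1.30 to -0.32, 1.75-fold lower, unadjusted p = 0.00177 in limma) and -0.68 on day 14 (95% interval -1.17 to -0.20, 1.60-fold lower, unadjusted p = 0.00735). After adjustment over all probe sets p was above 0.70 in both, and neither was called.

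The second probe set of Fst, 1387843_at, gave the same directions. Its lowest, median and highest signals were 474, 593 and 810 in SCI8d and 212, 291 and 547 in SCI8d + TM. On day 14 they were 576, 736 and 1005 in SCI14d and 250, 445 and 594 in SCI14d + TM. In each pair 5 of 6 trained rats lay below the lowest untrained rat. Training differences by this probe set were -0.92 at day 8 (adjusted p = 0.695 in limma) and -0.87 at day 14 (adjusted p = 0.245). The 2 probe sets read the same RNA of the same rats (r 0.90 over the 36 arrays), so the second is not an independent measurement.

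Fstl3, a relative of follistatin that also binds activins and myostatin, varied more than Fst. It had 152, 256 and 295 (lowest, median and highest) in CTR and 171, 414 and 1118 in SCI3d, where 5 of 6 rats lay above every control. The difference was 0.90 (SE 0.40, 95% interval 0.10 to 1.71, adjusted p = 0.124 in limma), and without SCI3d replicate 3 it was 1.18 with an adjusted p of 0.0332. Leaving out SCI3d replicate 1 instead raised the adjusted p of this difference to 0.3215. With the other probe set, 1370120_at, it was 1.35 (adjusted p = 0.0988). In SCI8d + TM the signals were 267, 293 and 1306, with 1 rat, replicate 6, far above the others, and the difference from SCI8d was 0.60 (95% interval -0.20 to 1.41), not called.

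Smad3, which carries the signal of the activated receptors into the nucleus, had its highest means in SCI3d and SCI8d. The lowest, median and highest signals were 2629, 2938 and 3625 in CTR, 2850, 4244 and 4920 in SCI3d, 3262, 3723 and 5162 in SCI8d, and 2651, 3179 and 5106 in SCI14d. In SCI3d and in SCI8d 4 of 6 rats lay above every control. The differences from CTR were 0.40 and 0.39 (adjusted p = 0.106 and 0.167 in limma), not called, and the first passed without SCI3d replicate 3 (0.50, adjusted p = 0.0417) and with median centring (0.50, adjusted p = 0.0495). Its adjusted p was 0.3312 with the other Smad3 probe set, 1369528_at.

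Trained rats had Smad3 signals of 2595, 2906 and 3700 on day 8 and of 1509, 2506 and 3286 on day 14. Of the 6 SCI8d + TM rats 5 lay below every SCI8d rat, and of the 6 SCI14d + TM rats 4 lay below every SCI14d rat. The differences were -0.39 on day 8 (95% interval -0.73 to -0.05, 1.31-fold lower, unadjusted p = 0.0268 in limma) and -0.53 on day 14 (95% interval -0.87 to -0.19, 1.45-fold lower, unadjusted p = 0.00337), and the adjusted p was 0.57 or more. SCI14d + TM was lower than SCI3d by 0.75 and than SCI8d by 0.74, and these pairs were called (adjusted p = 0.00173 with 16.3% of all probe sets called, and 0.0493 with 0.19%). They compare rats of different days as well as of different training. The second call was lost without 10 of the 12 arrays, each left out alone (all but SCI8d replicate 1 and SCI14d + TM replicate 6), with adjusted p up to 0.176 without SCI8d replicate 2. The other Smad3 probe set, 1369528_at, ran from 2.87 to 376 over the arrays, and its training differences were -0.26 and -0.20, neither called.

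Smad2, the partner of Smad3, moved little. Its signals were 839, 1008 and 1101 in CTR (lowest, median and highest) and 602, 803 and 1023 in SCI3d, with a difference of -0.30 (SE 0.13, adjusted p = 0.118 in limma). Both trained groups were higher than SCI3d, by 0.47 in SCI8d + TM (adjusted p = 0.014) and by 0.44 in SCI14d + TM (adjusted p = 0.0178). Neither was called with median centring (0.23 and 0.26, adjusted p = 0.211 and 0.13) or without SCI3d replicate 3 (adjusted p = 0.0522 and 0.0612), and the second was not without SCI14d + TM replicate 5 (adjusted p = 0.0585). Both pairs compare rats of different days as well as of different training. The untrained groups also had higher Smad2 means than SCI3d (9.66 on the log2 scale), at 9.98 in SCI8d and 9.94 in SCI14d. Neither untrained group was called against SCI3d. The differences between trained and untrained rats of the same day were 0.14 and 0.15 and were not called.

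Smad7, the inhibitor that is itself induced by the pathway, showed no called difference in any of the 15 pairs of groups. Its lowest, median and highest signals were 192, 346 and 760 in CTR, 140, 300 and 560 in SCI3d, 165, 320 and 480 in SCI8d, and 184, 259 and 499 in SCI14d. The SCI8d + TM rats had 190, 338 and 507, and the SCI14d + TM rats 173, 197 and 537. The group means spanned 0.55 on the log2 scale, less than the pooled SD within groups of 0.62. In SCI3d against CTR the 95% interval was -1.01 to 0.37, and in SCI8d + TM against SCI8d -0.54 to 0.84, so differences of up to these sizes are not excluded. Of its other probe sets, 1368897_at followed it (r 0.74 over 36 arrays) and 1368898_at did not (r -0.04).

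With the groups set in order of their mean log2 signals, no neighbouring groups of any of the 10 genes passed the test. Inhba ran from CTR (9.44) over SCI8d + TM (8.80), SCI14d (8.77), SCI14d + TM (8.54) and SCI8d (8.52) to SCI3d (7.58), and the largest gap, between SCI8d and SCI3d, was 0.95 (adjusted p = 0.0783 in limma). Fst ran from SCI14d (9.78) and SCI8d (9.63) to SCI3d (9.18), SCI14d + TM (9.10), CTR (9.03) and SCI8d + TM (8.82). The pairs of SCI14d with SCI8d, SCI14d with SCI8d + TM, and SCI14d + TM with SCI8d + TM called none of the 10 genes in limma, against 0%, 0.00644% and 0.577% of all probe sets. Mstn and Acvr2b were also highest in CTR, Inhbb and Acvr2a in SCI14d, Fstl3 and Smad3 in SCI3d, Smad2 in SCI8d + TM, and Smad7 in CTR. The difference of both training effects, day 14 against day 8, was called for 0 of the 10 genes in limma, where 0% of all probe sets were called. At an unadjusted p under 0.05 it held 0 of the 10 genes and 5.34% of all probe sets.

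The other genes of the pathway were taken in 6 lists of ligands, receptors, ligand-processing proteins, extracellular antagonists, Smad partners and genes known to be raised by TGF-beta or activin, of which 45 of 53 genes were measured. On day 3, 5 of the 45 rose and 5 fell, against 7.22% and 9.24% of all probe sets. On day 8 only Ltbp4, a latent TGF-beta binding protein, fell (-0.65, adjusted p = 0.0115 in limma, 3.28% of probe sets lower), and on day 14 only Ltbp3 rose (0.82, adjusted p = 0.0383, 1.52% of probe sets higher). Neither training comparison called any of the 45 in limma, with 0 of them at an unadjusted p under 0.05 on day 8 (4.33% of all probe sets) and 1 on day 14 (5.96%).

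Among the ligands on day 3, Gdf11, the closest relative of myostatin, fell by 0.86 (adjusted p = 0.0149 in limma), from a median of 533 in CTR to 270 in SCI3d. The median difference of the 7 measured ligands of this list, Gdf11 among them, was -0.03, against -0.04 for all probe sets. None of the 4 measured receptors and co-receptors was called on day 3. Among the processing genes Ltbp4 fell by 0.94 (adjusted p = 5.32e-05) and Ltbp2 by 1.57 (adjusted p = 0.0201), while Furin, a protease that cleaves the ligand precursors, rose by 0.66 (adjusted p = 0.00845).

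Of the antagonists, Igsf1, a membrane glycoprotein linked to inhibin and activin signaling, fell by 1.75 on day 3 (adjusted p = 0.000675 in limma), from a median of 253 to 81.4. Of the 11 measured Smad partners 3 rose on day 3: Smad4, the common partner of Smad2 and Smad3, by 0.56 (adjusted p = 0.00297), the corepressor Tgif1 by 1.17 (adjusted p = 0.0158) and the ubiquitin ligase Nedd4l by 0.61 (adjusted p = 0.0392). The 6 Smad4 signals of SCI3d ran from 2985 to 4292 and those of CTR from 2004 to 3142, so the groups overlapped. Of the 14 measured genes raised by TGF-beta or activin, Timp1 rose by 1.90 (adjusted p = 0.0271) and Tgif1 rose, while Ccn2 and Ltbp2 fell.

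In SCI8d + TM against CTR 4 of the 45 rose, against 6.48% of all probe sets, and 2 fell, against 5.71%. The proteoglycan Bgn rose by 1.40 (adjusted p = 0.00825 in limma), Fstl1 by 0.98 (adjusted p = 0.0207), Timp1 by 2.46 (adjusted p = 0.007) and Pmepa1, which restrains Smad signaling, by 0.95 (adjusted p = 0.0364). Ltbp4 fell by 0.78 (adjusted p = 0.00125) and Zfyve9, which anchors Smad2 and Smad3 at the receptor, by 0.64 (adjusted p = 0.0384). In SCI14d + TM against CTR none of the 45 was called in limma (0.358% of all probe sets), with 10 at an unadjusted p under 0.05 (12.1% of all probe sets).

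**Figure D5:**
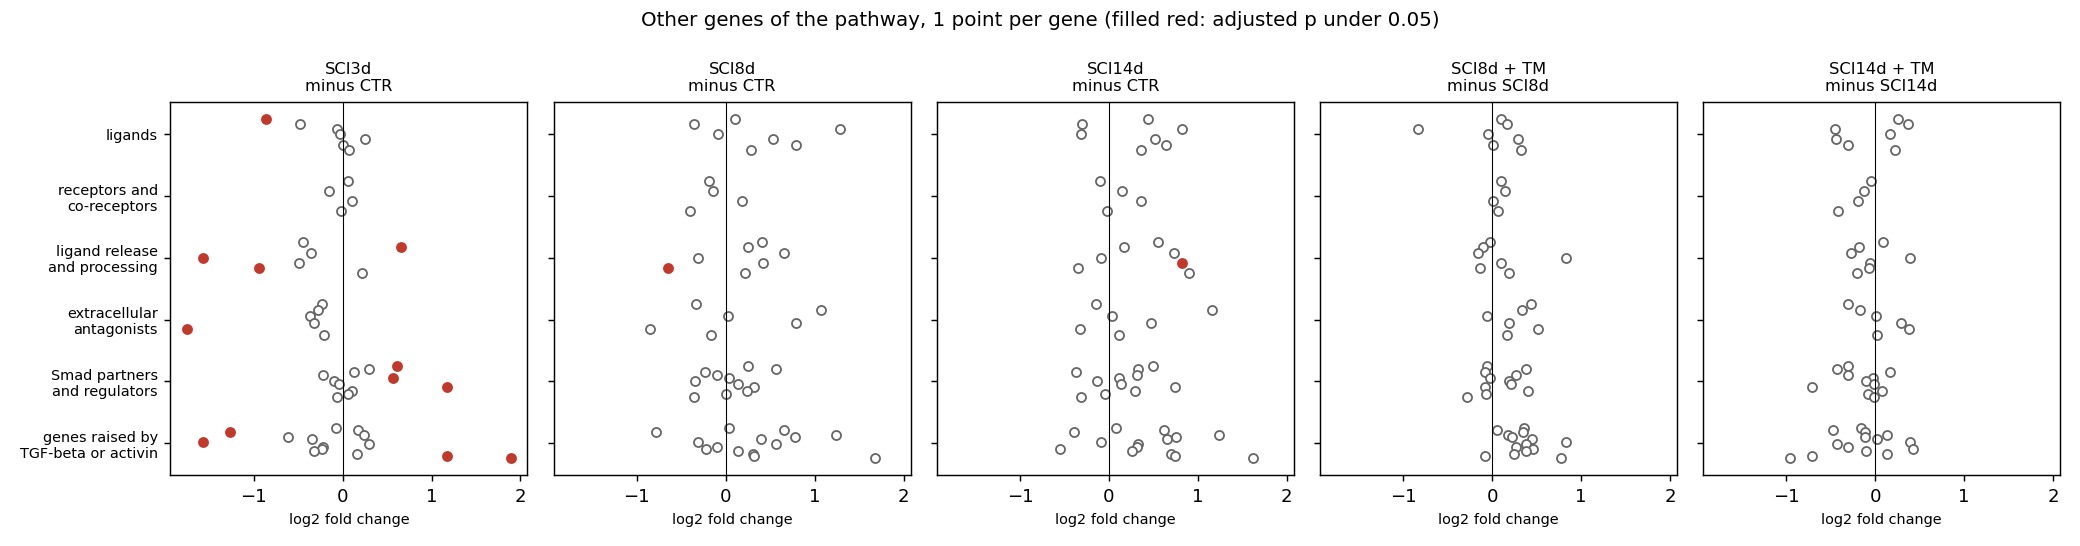
Differences in mean log2 signal (horizontal axis) of the other pathway genes, 1 point per gene and 1 row per list (a gene in 2 lists is drawn in both), for the 3 SCI groups against CTR and for trained against untrained rats, n = 6 per group. Filled red points passed the test, and none did in the 2 training panels.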

How the data were processed

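Total RNA of the left soleus was hybridised to Affymetrix Rat Genome 230 2.0 arrays, 1 per rat. The deposited intensity values are linear signals from Microarray Suite (MAS5 in the submitters' processing notes), for which the authors had scaled each array by 1 factor. The table holds 31099 probe sets, 57 controls included, the number that the methods give for probe sets with at least 4 present calls. Present calls are not among the values, so that filter could not be checked, and a dim probe set need not have been detected. Signals ran from 0.0872 to 96233, and the number of arrays limits the precision. A genome build is not part of these values. Per-sample columns of other origin numbered 0.

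Groups follow the sample labels. Manufacturer's controls (57) were left out, and 31042 probe sets remained, of which 20826 carry 1 symbol. Log2 signals, without an offset, were fitted in limma 3.58.1 (R 4.3.3) with 6 groups, 30 residual and 5.45 prior degrees of freedom and an intensity trend. P-values were adjusted over all probe sets of a comparison. Differences are first group minus second, with 95% intervals, and p-values measure the spread between rats. An exact permutation test of mean log2 signals was run for 70 pairs of gene and comparison and is printed unadjusted, and none of the 70 passed 0.05 once adjusted over them. The methods name a t-test, run here as an alternative. Others were quantile normalization, median centring, scaling to Gapdh, an offset of 32, leaving out the dimmest 40% of probe sets, array weights, the replicate number as a block, the GAPDH 3′ to 5′ ratio, replicates 5 and 6 as a batch, other probe sets, and each array left out. Leaving out the 3 arrays of highest GAPDH ratio was added after seeing the data.

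All 10 genes are named, with the called genes of each list and the 3 genes most like a called member. The members and lists were chosen with earlier results of these data known. The procedure was tested on simulated data. Replicate numbers showed no clear pairing of the arrays. Figures were drawn with matplotlib 3.10.9 (Python 3.11.15).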

Additional observations from a re-analysis of the deposited data

Results flagged for a closer look

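In 3 of the 60 groups of 6 arrays that the 10 genes form, 1 array lay far from the others by Dixon's test of the log2 signals at its 95% limit, and chance alone gives about 1 in 20 such groups. The Mstn signal of CTR replicate 6 was 14.1, with the nearest control at 123. The Fst signal of SCI3d replicate 1 was 421, with the nearest rat of its group at 586. The Fstl3 signal of SCI8d + TM replicate 6 was 1306, with the nearest at 373.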

How the results depend on the processing

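Of the called differences of the 10 genes, those of Inhba in SCI14d and in SCI14d + TM against SCI3d changed sign with 1369012_at (-0.15 and -0.0075), and no other called difference changed sign under an alternative. Both training comparisons called 0 of them in limma under every alternative, each array left out included, and 0 in the methods' t-test after adjustment. Without adjustment, the threshold of the methods, that test passed 4 of the 10 genes in SCI3d (25.6% of all probe sets), 4 in SCI8d (20.2%), 2 in SCI14d (16.9%), 2 in SCI8d + TM (27.3%) and 2 in SCI14d + TM (14.6%), each against CTR, and for training Fst and Smad3 on day 8 (4.03%) and on day 14 (5.75%). Of 974 values under the alternatives beside leaving out arrays, counts of called genes included, 894 were rated as unchanged, as were 939 of 1032 with 1 array left out. Among these, 819 and 846 were differences that kept their direction and their side of the threshold, and the rest were counts that stayed the same or nearly so. The cause of the changes that follow was not tested.

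In SCI3d against CTR the count of called genes was 2 with median centring (Inhba and Smad3), 2 with an offset of 32 (Mstn and Inhba) and 2 with the methods' t-test (Inhba and Acvr2b), and 1 to 3 without 1 array (the 3 being Inhba, Fstl3 and Smad3 without SCI3d replicate 3). In SCI8d against CTR it was 1 with array weights (Inhbb, adjusted p = 0.0488). In SCI14d against CTR it was 1, Fst, with scaling to Gapdh, with array weights and with the GAPDH ratio as a covariate, and 0 to 1 without 1 array. In SCI8d + TM against CTR it was 0 with scaling to Gapdh and 0 with the GAPDH ratio as a covariate, 1 with the methods' t-test (Inhbb), 1 with the replicate number as a block (Acvr2b), 1 without the 3 arrays of high GAPDH ratio (Inhbb), and 0 to 2 without 1 array. Same-numbered arrays deviated together in at most 1 of 6 pairs (r from -0.10 to 0.16). No clear pairing by number was seen, and low correlations cannot exclude a weak one. The replicate block changed 1 other call, Smad3 in SCI14d + TM against SCI8d (adjusted p = 0.0602 in limma). Scaling to Gapdh moved the median of all probe sets to 0.32 in SCI14d against CTR, from 0.08. Leaving out the dimmest 40% of probe sets removed Mstn, which has no value there, and the t-test gives none for the difference between training effects.

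Of the called differences between injured groups, the methods' t-test kept that of Smad3 in SCI14d + TM against SCI3d and that of Inhba in the same pair, and lost the other 5. That of Inhba in SCI14d + TM against SCI3d was also lost with quantile normalization (adjusted p = 0.0916) and median centring (0.088), that of Smad2 in SCI8d + TM against SCI3d with scaling to Gapdh (0.115), and that of Smad3 in SCI14d + TM against SCI8d with quantile normalization (0.0526), median centring (0.0652), scaling to Gapdh (0.208) and the GAPDH ratio as a covariate (0.0505). With 1369528_at neither Smad3 difference was called (0.464 and 0.419).

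All other values that changed sign were not called in either setting. With the other probe sets, they were Inhba in SCI14d + TM against SCI14d at 0.14 (1369012_at), Inhba in SCI8d + TM against CTR at 0.34 (1369012_at), Fst in SCI14d + TM against CTR at -0.15 (1387843_at), Smad3 in SCI14d + TM against CTR at 0.32 (1369528_at), Smad7 in SCI8d against CTR at 0.010 (1368898_at), Smad7 in SCI8d + TM against SCI8d at -0.13 (1368897_at), Smad7 in SCI8d + TM against SCI8d at -0.082 (1368898_at), Smad7 in SCI14d + TM against SCI14d at 0.31 (1368898_at) and Smad7 in SCI14d + TM against CTR at 0.10 (1368898_at). With quantile normalization, they were Inhbb in SCI14d against CTR at -0.12, Acvr2a in SCI3d against CTR at 0.039 and Fstl3 in SCI14d against CTR at -0.066. With median centring, they were Inhbb in SCI14d against CTR at -0.12, Acvr2a in SCI3d against CTR at 0.071, Acvr2a in SCI8d + TM against CTR at -0.021, Fst in SCI14d + TM against CTR at -0.014, Fstl3 in SCI8d against CTR at -0.0021, Fstl3 in SCI14d against CTR at -0.089, Smad2 in SCI8d against CTR at -0.038 and Smad3 in SCI8d + TM against CTR at -0.14. With array weights, they were Inhbb in SCI14d against CTR at -0.15 and Smad3 in SCI8d + TM against CTR at -0.0064. Without the 3 arrays of high GAPDH ratio, they were Inhbb in SCI14d against CTR at -0.40, Acvr2a in SCI3d against CTR at 0.039 and Smad3 in SCI8d + TM against CTR at -0.032. With scaling to Gapdh, they were Acvr2a in SCI3d against CTR at 0.015, Acvr2a in SCI8d + TM against SCI8d at 0.055, Acvr2b in SCI14d against CTR at 0.023, Fstl3 in SCI14d + TM against CTR at 0.018, Smad2 in SCI8d against CTR at -0.0051 and Smad2 in SCI14d against CTR at 0.22. With the GAPDH 3′ to 5′ ratio as a covariate, they were Acvr2a in SCI3d against CTR at 0.015 and Smad7 in SCI8d + TM against CTR at 0.021. Without 1 array at a time, values ran on both sides of 0 for Mstn in SCI8d + TM against SCI8d (-0.56 to 0.11), Mstn in SCI14d + TM against SCI14d (-0.80 to 0.14), Inhbb in SCI14d against CTR (-0.41 to 0.20), Acvr2a in SCI3d against CTR (-0.080 to 0.039), Acvr2a in SCI8d + TM against SCI8d (-0.085 to 0.023), Acvr2b in SCI14d + TM against SCI14d (-0.27 to 0.086), Fst in SCI14d + TM against CTR (-0.070 to 0.23), Fstl3 in SCI8d against CTR (-0.26 to 0.30), Fstl3 in SCI14d against CTR (-0.092 to 0.14), Smad2 in SCI8d against CTR (-0.049 to 0.090), Smad2 in SCI14d against CTR (-0.071 to 0.043), Smad3 in SCI8d + TM against CTR (-0.056 to 0.059), Smad7 in SCI8d + TM against SCI8d (-0.018 to 0.31) and Smad7 in SCI8d + TM against CTR (-0.28 to 0.12).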

Other observations

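The 14 measured genes known to be raised by TGF-beta or activin, among them Col1a1, Fn1 and Tagln, had a median training difference of 0.35 on the log2 scale on day 8, with 13 of 14 higher on average in SCI8d + TM than in SCI8d, against a median of 0.03 over all probe sets. On day 14 the median was -0.11 with 5 of 14 higher. The difference of both training effects, day 14 against day 8, had a median of -0.47, with 0 of 14 higher, against -0.06 over all probe sets. None of these genes was called in limma in any of these 3 comparisons. The fibroblast markers, which share Col1a1 with this list, were higher on average in SCI8d + TM than in SCI8d in 8 of 10. For the macrophage markers this held in 11 of 12. For the difference of both training effects, which uses the day 8 arrays again, the medians were -0.34 (fibroblast, 2 of 10 higher), -0.22 (macrophage, 3 of 12) and -0.25 (Smad partners, 2 of 11). The Smad partners share Skil, Pmepa1 and Tgif1 with the 14 genes. Of all 45 measured genes of the pathway lists, the 14 included, 10 were higher, with a median of -0.21. Other lists went the other way, such as the muscle fibre markers (0.23, 10 of 10 higher) and the adipocyte markers (0.75, 6 of 6). The share of all probe sets with a higher mean was not counted, and the part of these lists was not tested.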
